A study of Mus musculus with 19 samples.

Results

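The interleukin-1 family and the inflammasome were followed through 10 genes in RNA from mouse kidney. The genes were chosen by name and not by a cut on measured values, though earlier results of these data were known. All 10 were found among the 19287 entries of the expression table. They encode the ligands Il1b, Il18 and Il33, the receptor antagonist Il1rn, the receptor chains Il1r1 and Il1rap, the decoy receptor Il1r2, and the inflammasome parts Nlrp3, Pycard and Casp1. The 19 libraries, of male mice of the inbred C57BL/6 strain, form 4 groups. The 4 IRLacz libraries are from mice gavaged for 4 weeks with Lactobacillus casei Zhang, a probiotic strain, then given ischemia-reperfusion injury of the kidney and killed on day 5 after it. The 5 IRLac libraries had the same schedule with the other strain of the study, taken by elimination as Lactobacillus acidophilus. The 5 IR libraries had the injury with no gavage stated, and the 5 sham libraries had neither stated. In this injury the kidney's blood supply is cut off and later let back in. The labels do not say that each library is its own mouse, so p-values rest on variation among libraries, which may be technical.

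Interleukin-1 beta is made as an inactive precursor. Its gene is switched on through NF-kappaB, and the precursor is cut by caspase-1, which is activated when the sensor NLRP3 gathers the adaptor ASC (the product of Pycard) into an inflammasome. The cut cytokine binds the receptor IL1R1, which then recruits the accessory chain IL1RAP and signals through MYD88 and IRAK kinases. IL1RN occupies IL1R1 without signalling, and IL1R2 binds the cytokine without signalling. IL-18 matures by the same protease, whereas IL-33 is kept in the nucleus of stromal and epithelial cells, acts when cells are damaged and uses the receptor encoded by Il1rl1 with IL1RAP. These steps after transcription are not seen in RNA, so the values below are levels of the messengers and not of active protein.

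The promoter letters of the members place these genes in the annotation and show where the binding motifs of 3 inflammatory factors occur by spelling. RefSeq gave 15 start windows for the 10 members in assembly GRCm38.p6, each from 250 bases before to 50 bases after a start, and the expression table itself carried no coordinates. Each window was searched on both strands for the NF-kappaB consensus, for the AP-1 motif TGANTCA and for the PU.1 core GAGGAA; none of the matches of different motifs shared a window. The NF-kappaB consensus was found in 2 of the 15 windows (13.3%, of Il1r1 and Nlrp3), against 8.46% of all 32851 mouse windows. The AP-1 motif was in 1 window (6.67%, of Il1rn), against 7.81% of all windows. The PU.1 core was in 4 (26.7%, of Pycard, Casp1, Nlrp3 and Il33), against 28.3%. The following windows are shown because they belong to the best known induced genes of the group and hold a match or, for Il1b, none. The window of Il1b lies at chr2:129371090-129371389 on the minus strand. The first window of Nlrp3 is at chr11:59541319-59541618 and the second at chr11:59542436-59542735, and the window of the upstream start of Il1rn is at chr2:24336610-24336909, these on the plus strand. Capitals mark the match, and the Il1b window has no capitals.
Il1b: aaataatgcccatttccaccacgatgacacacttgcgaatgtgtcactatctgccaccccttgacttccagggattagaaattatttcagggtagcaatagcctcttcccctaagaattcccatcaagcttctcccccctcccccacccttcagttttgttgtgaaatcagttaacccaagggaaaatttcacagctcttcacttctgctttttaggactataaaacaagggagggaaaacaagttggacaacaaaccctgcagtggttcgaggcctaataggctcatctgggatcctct
Nlrp3, first window: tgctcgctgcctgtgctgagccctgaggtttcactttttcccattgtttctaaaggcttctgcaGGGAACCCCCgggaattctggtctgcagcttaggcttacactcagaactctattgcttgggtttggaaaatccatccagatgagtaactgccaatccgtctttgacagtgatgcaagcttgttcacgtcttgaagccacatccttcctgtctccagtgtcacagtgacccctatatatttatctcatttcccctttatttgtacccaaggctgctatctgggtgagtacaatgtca
Nlrp3, second window: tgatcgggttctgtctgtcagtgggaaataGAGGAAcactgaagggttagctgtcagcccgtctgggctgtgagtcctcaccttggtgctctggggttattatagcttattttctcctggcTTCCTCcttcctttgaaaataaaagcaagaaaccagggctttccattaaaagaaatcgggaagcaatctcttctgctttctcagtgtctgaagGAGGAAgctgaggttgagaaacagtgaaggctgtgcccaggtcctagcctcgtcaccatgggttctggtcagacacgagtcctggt
Il1rn, upstream start: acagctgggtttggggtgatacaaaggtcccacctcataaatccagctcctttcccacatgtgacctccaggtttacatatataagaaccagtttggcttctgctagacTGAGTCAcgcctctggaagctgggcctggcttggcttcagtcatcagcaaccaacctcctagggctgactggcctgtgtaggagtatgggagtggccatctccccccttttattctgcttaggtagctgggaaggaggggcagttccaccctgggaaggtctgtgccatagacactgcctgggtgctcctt
The capitals are the NF-kappaB consensus GGGAACCCCC in the first Nlrp3 window, beginning 186 bases before the start and read on both strands. They are the PU.1 core in the second, on the plus strand 220 and 36 bases before the start and on the minus strand 129 bases before it. In the Il1rn window they are the AP-1 motif, 141 bases before the start. A match in letters is a description of the window and not a measured binding event, and the lack of one in the Il1b window says only that these letters are not within it.

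Values are FPKM, fragments scaled to gene length and to the library's mapped fragments, as the authors deposited them. An entry was tested where at least 4 libraries reached 1 FPKM, which left 13594 entries. Of the 10 members, 5 passed through the sham libraries alone (Il1r1, Il1rap, Il18, Il33 and Pycard) and 4 only through injured libraries (Il1b, Il1rn, Casp1 and Nlrp3), so those 4 had to differ to be tested. Il1r2 reached 1 FPKM in 2 libraries and was not tested. Differences are given for log2(FPKM + 1), a scale that makes changes of scarce messengers look smaller, and an entry was called at a limma adjusted p under 0.05. Kidney markers were present in every library: the proximal tubule gene Lrp2 at 46.1 to 152 FPKM, the loop gene Umod at 647 to 2342 FPKM and the collecting duct gene Aqp2 at 172 to 707 FPKM. Within groups, libraries correlated at 0.960 to 0.993. IRLacz replicate 1 held the lowest value of its group for 9 of the 10 members and for 57.7% of all tested entries, and IRLac replicate 3 for 9 of 10 and 42.5%. Both are kept in the values below, and calls that rest on them are given without them too. Correlations were computed only with both kept.

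In injured kidneys with no gavage stated the members were higher than in sham, with Il18 as the exception. Of the 9 tested members, 8 rose in IR against sham and none fell. Of all entries in the fit, 57.0% rose and 18.6% fell, and all IR libraries lay above all sham libraries for 8 of the 9 members and for 48.6% of entries, so the call itself is common in this comparison. Of the 9, 4 were tested only through injured libraries (Il1b, Il1rn, Casp1 and Nlrp3), so their rise is partly set by the filter. The 5 that passed through sham alone differed by 1.84 (Il33), 1.37 (Pycard), 1.16 (Il1r1), 0.70 (Il1rap) and 0.38 (Il18, not called). The median log2 difference of the 9 was 1.32, against 0.29 over all entries. Scaling each library by the median ratio of its entries moved that overall median to 0.00375. The whole table then split into 4764 higher and 4794 lower calls in place of 7747 and 2529. Under that scaling 8 of the 9 members were still called higher, with a median of 1.08, and Il1rn, Il33 and Il1b stood at 2.64, 1.57 and 1.24.

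Among the ligands, Il1b, the main pro-inflammatory cytokine of the family, was at 4.12, 4.12, 3.39, 3.94 and 3.05 FPKM in the IR libraries, against 0.95, 0.32, 0.67, 1.40 and 0.59 FPKM in sham. The groups did not overlap, and the log2 difference was 1.43 (SE 0.17, limma adjusted p = 4.8e-07). Il33, the alarmin released from damaged cells, was at 13.7, 11.5, 11.8, 12.2 and 11.9 FPKM in IR, against 3.16, 2.68, 2.30, 2.63 and 2.70 FPKM in sham. It was the most abundant of the 3 ligands in both groups, and it rose by 1.84 (SE 0.18, limma adjusted p = 6.1e-08), with IR libraries close together. Il18 was at 1.61, 2.05, 2.55, 1.99 and 1.54 FPKM in IR, against 1.08, 1.11, 1.39, 2.25 and 0.71 FPKM in sham. The highest sham library lay above 4 of the 5 IR libraries, and the difference of 0.38 (95% confidence interval -0.08 to 0.83) did not pass the test (limma adjusted p = 0.12). Without sham replicate 4, which held that high value, the adjusted p of Il18 was 0.0433. Il18 was called in 3 of 19 alternatives, and its difference in them ran from -0.14 to 0.61.

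Il1rn, the natural antagonist, had the largest difference of the tested members. It was at 9.15, 5.59, 7.73, 5.69 and 4.15 FPKM in IR, against 0.03, 0.14, 0.08, 0.17 and 0.03 FPKM in sham. Sham kidneys thus held next to no Il1rn messenger, and the log2 difference was 2.74 (SE 0.24, limma adjusted p = 2.1e-08). The mean in IR was 71.8 times the mean in sham, a ratio that rests on very low sham values given to 2 decimals. Il1r1, the signalling receptor, was at 5.87, 5.85, 5.45, 5.47 and 5.64 FPKM in IR, against 2.25, 1.83, 2.13, 2.02 and 1.71 FPKM in sham. Its IR libraries spread least of all members relative to the mean (coefficient of variation 3.54%), and the log2 difference was 1.16 (SE 0.11, limma adjusted p = 3e-08). The accessory chain Il1rap rose less, by 0.70 (SE 0.11, limma adjusted p = 1.3e-05), with 1.77 to 3 FPKM in IR, against 0.93 to 1.21 FPKM in sham. Under quantile normalization its difference was 0.16 and not called (adjusted p = 0.155). The decoy Il1r2 was at 0.23 to 0.85 FPKM in IR, against 0 to 0.22 FPKM in sham, without overlap. With the filter on low values removed, its log2 difference was 0.57 (limma adjusted p = 0.00425).

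All 3 inflammasome members rose. The sensor Nlrp3 was at 0.91, 1.18, 1.28, 1.06 and 1.18 FPKM in IR, against 0.17, 0.12, 0.14, 0.10 and 0.13 FPKM in sham. It was scarce in both groups and the means differed 8.5-fold, and it rose by 0.90 on the log2 scale (SE 0.12, limma adjusted p = 1.9e-06). The protease Casp1 was at 2.61, 3.07, 3.48, 1.80 and 2.59 FPKM in IR, against 0.59, 0.32, 0.63, 0.29 and 0.55 FPKM in sham; the log2 difference was 1.32 (SE 0.16, limma adjusted p = 6.6e-07). The adaptor Pycard was at 13.18, 12.97, 11.58, 10.97 and 13.72 FPKM in IR, against 4.11, 4.14, 4.95, 4.17 and 3.72 FPKM in sham. It rose by 1.37 (SE 0.12, limma adjusted p = 1.3e-08), and no library of either group came near the other group. Markers of macrophages and monocytes rose too, with 12 of 12 called higher in IR, beside 57.0% of all entries. Their summed levels were 1354 to 1929 FPKM in IR, against 109 to 146 FPKM in sham. The defining marker Adgre1 was at 18.3 to 22.1 FPKM in IR, against 1.24 to 2.49 FPKM in sham. Fibroblast markers rose for 8 of 8, at 611 to 746 FPKM in IR, against 64.8 to 91.3 FPKM in sham. In RNA from whole tissue, a change in the number of cells of a type and a change in RNA per cell cannot be told apart. The part of these cells in the members' levels was not tested.

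**Figure D1:**
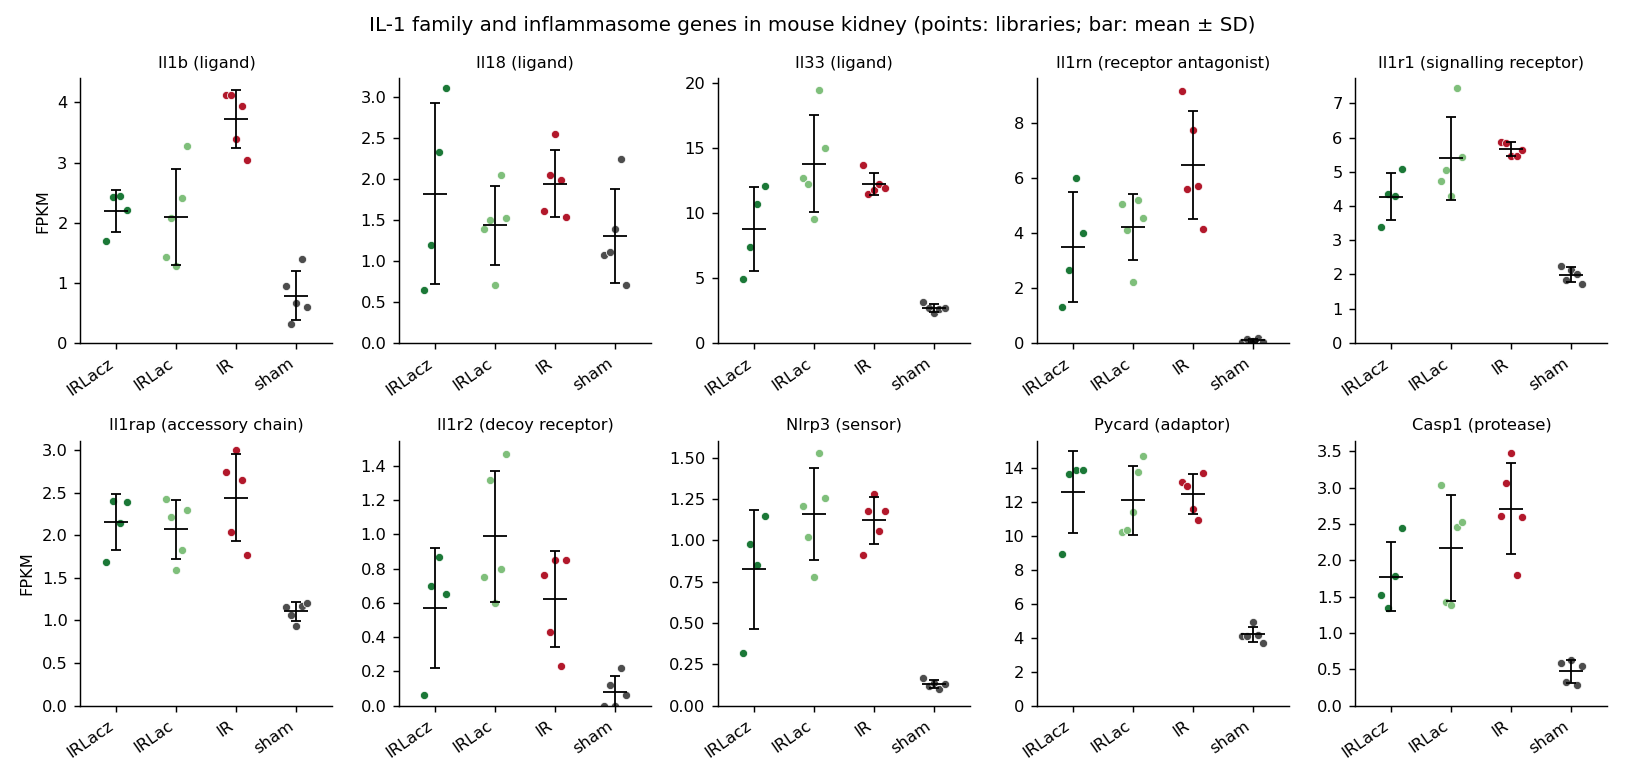
FPKM of each of the 10 members (vertical axis, 1 panel per gene, each with its own scale starting at 0) in the IRLacz, IRLac, IR and sham libraries, with 1 point per library and bars for the mean ± SD. Sham libraries lie below IR libraries in every panel but that of Il18, where the highest sham library stands at 2.25 FPKM.

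In order of level, Pycard (12.48 ± 1.16 FPKM, SD, n = 5) and Il33 (12.2 ± 0.876 FPKM) led the members in IR, and these 2 did not differ beyond their spread. Il1rn (6.46 ± 1.97 FPKM) and Il1r1 (5.66 ± 0.20 FPKM) came next and overlapped too, and they were followed by Il1b, Casp1, Il1rap, Il18, Nlrp3 and Il1r2. FPKM is scaled by gene length, so these levels can be set side by side between genes. The signalling receptor was thus more abundant than its accessory chain, with Il1rap at 0.314 to 0.551 of Il1r1 in the IR libraries and 0.437 to 0.708 in sham. The decoy Il1r2 was at 0.042 to 0.156 of Il1r1 in IR and 0 to 0.109 in sham.

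With gavage, most members were still higher in the injured kidneys than in sham. In IRLacz against sham 8 of 9 tested members rose, beside 56.9% of all entries, and in IRLac against sham 8 of 9 rose, beside 58.0%. Il18 was the member not called in either. The 4 members tested only through injured libraries are among the 8 in both comparisons, and their rise is partly set by the filter. The comparisons share the sham libraries, so each is given by its own values. In IRLacz the log2 difference from sham was 1.92 for Il1rn, 1.37 for Pycard, 1.34 for Il33, 0.90 for Casp1, 0.86 for Il1b, 0.81 for Il1r1, 0.67 for Nlrp3 and 0.58 for Il1rap. In IRLac it was 2.22 for Il1rn, 1.32 for Pycard, 1.97 for Il33, 1.08 for Casp1, 0.78 for Il1b, 1.08 for Il1r1, 0.92 for Nlrp3 and 0.54 for Il1rap. The highest adjusted p among these was 0.00031 in IRLacz and 0.00034 in IRLac, both of Il1b (limma). Under quantile normalization Il1b was not called in IRLacz (0.38, adjusted p = 0.057) or IRLac (0.32, adjusted p = 0.078), and Il1rap was not called either (adjusted p = 0.70 in IRLacz and 0.866 in IRLac). Il18 was at 1.825 ± 1.11 FPKM in IRLacz (SD, n = 4), 1.436 ± 0.479 FPKM in IRLac (n = 5) and 1.308 ± 0.579 FPKM in sham (n = 5). Il1b overlapped sham in IRLac, with its lowest IRLac library at 1.28 FPKM and its highest sham library at 1.40 FPKM. The untested Il1r2 overlapped sham in IRLacz, with its lowest IRLacz library at 0.06 FPKM and its highest sham library at 0.22 FPKM.

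Mice given L. casei Zhang had lower kidney levels of the cytokine Il1b, of the antagonist Il1rn and of the receptor Il1r1 than injured mice with no gavage stated. These 3 of the 9 tested members were called lower in IRLacz against IR, none was called higher, and the point estimates of all 9 were negative. The 9 were measured in the same libraries, so their signs are not independent. Under some alternatives the estimates of Pycard and Il18 turned positive, up to 0.14 and 0.09. Of all tested entries, 7.92% were called lower and 5.39% higher. The median of the 9 log2 differences was -0.34, against -0.0041 over all entries. Adjusted p-values lay just under the threshold, and the calls depended on single libraries: without IRLacz replicate 1 none of the 9 was called, and the median of the 9 was then -0.26. IRLacz replicate 2 and IR replicates 1, 2, 3 and 4 also each ended all 3 calls when left out.

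Il1b was at 1.70, 2.43, 2.45 and 2.21 FPKM in the IRLacz libraries, against 4.12, 4.12, 3.39, 3.94 and 3.05 FPKM in IR. Every IRLacz library lay below every IR library, which held for 6.85% of all entries, and the log2 difference was -0.56 (SE 0.18, limma adjusted p = 0.041). The call held in 5 of 18 alternatives, and the difference stayed between -0.74 and -0.48. Il1rn was at 1.29, 2.65, 5.99 and 3.98 FPKM in IRLacz, against 9.15, 5.59, 7.73, 5.69 and 4.15 FPKM in IR. The third IRLacz library lay inside the IR range and the other 3 lay below it. The difference was -0.81 (SE 0.26, limma adjusted p = 0.044); it was called in 6 of 18 alternatives, and without IRLacz replicate 1 it was -0.53 (adjusted p = 0.153). Il1r1 was at 3.39, 4.35, 4.28 and 5.08 FPKM in IRLacz, against 5.87, 5.85, 5.45, 5.47 and 5.64 FPKM in IR. These groups did not overlap either, the difference was -0.34 (SE 0.11, limma adjusted p = 0.0497), and it was called in 4 of 18 alternatives.

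The other members did not pass the test in this comparison. Il33 was at 4.89, 7.41, 10.7 and 12.1 FPKM in IRLacz, against 11.5 to 13.7 FPKM in IR. The IRLacz libraries reached from the lowest value of any injured library up to the IR range, with a difference of -0.50 (limma adjusted p = 0.085). Casp1 was at 1.52, 1.35, 1.79 and 2.44 FPKM in IRLacz, against 1.80 to 3.48 FPKM in IR, and 3 of the 4 IRLacz libraries lay below the lowest IR library (-0.42, limma adjusted p = 0.0996). Nlrp3 was at 0.32 to 1.15 FPKM in IRLacz and 0.91 to 1.28 FPKM in IR, a difference of -0.24 (limma adjusted p = 0.20). The differences of Il1rap (-0.12, 95% confidence interval -0.36 to 0.12) and Il18 (-0.14, -0.62 to 0.34) were small against their intervals. Pycard was the member whose groups lay closest, at 8.96, 13.7, 13.9 and 13.9 FPKM in IRLacz and 10.97 to 13.72 FPKM in IR (-0.0025, -0.26 to 0.26). Il1r2 was at 0.06, 0.70, 0.87 and 0.65 FPKM in IRLacz, against 0.76, 0.43, 0.85, 0.23 and 0.85 FPKM in IR, and the groups overlapped.

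Macrophage markers tended lower in IRLacz as well. Of 12 markers 7 were called lower in IRLacz and none higher, beside 7.92% and 5.39% of all tested entries. Their summed level was 552 to 1299 FPKM in IRLacz, against 1354 to 1929 FPKM in IR, with no overlap. Adgre1 was at 6.88 to 17.99 FPKM in IRLacz and 18.3 to 22.1 FPKM in IR, and Lyz2 at 239 to 495 FPKM in IRLacz and 521 to 798 FPKM in IR. Without IRLacz replicate 1, 1 of the 12 was called. Fibroblast markers were called lower for 5 of 8, at 285 to 438 FPKM in IRLacz and 611 to 746 FPKM in IR. Without IRLacz replicate 1, 4 of the 8 were called. Markers of the distal tubule and collecting duct went the other way, with 4 of 10 called higher in IRLacz and none lower (median 0.85). Their summed levels were 2277 to 3935 FPKM in IRLacz, against 1234 to 2260 FPKM in IR, ranges that did not overlap but nearly met. Without IRLacz replicate 1, 1 of the 10 was called. The part of these cell types in the levels of Il1b, Il1rn and Il1r1 was not tested.

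**Figure D2:**
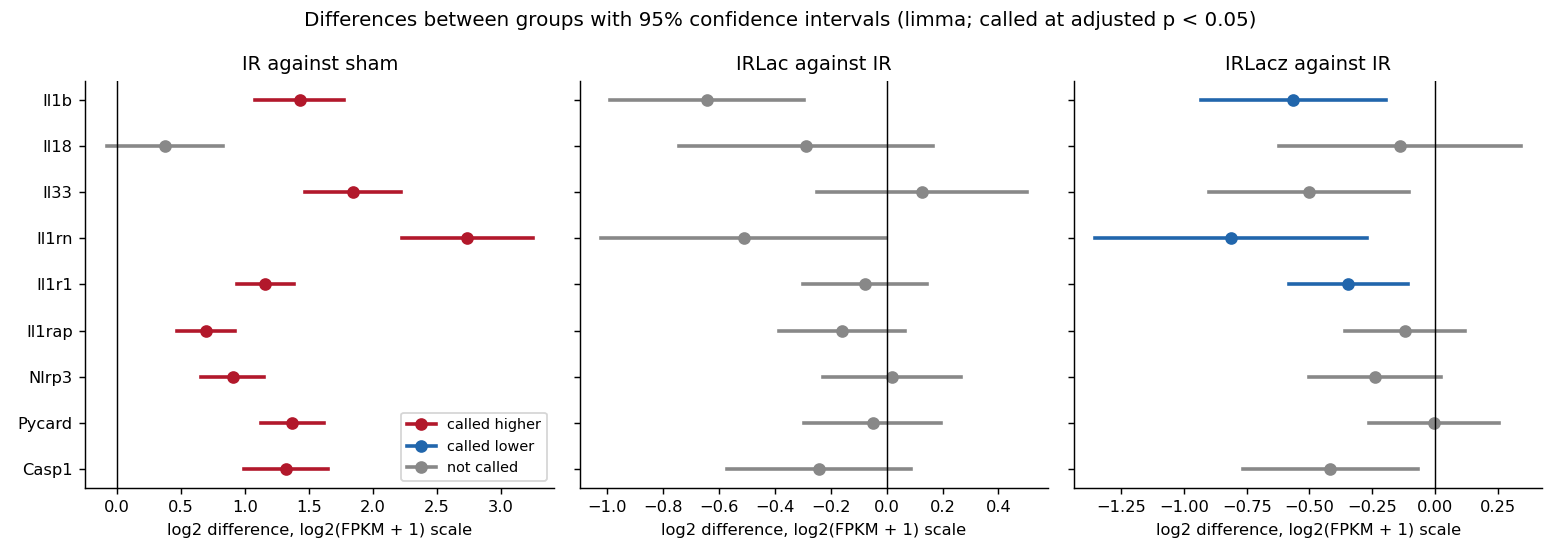
Log2 difference of each tested member (horizontal axis, log2(FPKM + 1) scale) with its 95% confidence interval from limma, for IR against sham, IRLac against IR and IRLacz against IR; red marks members called higher, blue lower and grey not called. Il1rn stands farthest right in IR against sham at 2.74, and Il1b, Il1rn and Il1r1 are the blue points in IRLacz against IR; the 3 panels have different horizontal scales.

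In IRLac none of the 9 tested members was called against IR, and of all tested entries 0.00736% were called (1 entry, lower), while 786 had an unadjusted p under 0.05. Among the members 2 had an unadjusted p under 0.05, Il1b and Il1rn. Il1b was at 1.43, 2.08, 1.28, 2.41 and 3.27 FPKM in IRLac, against 4.12, 4.12, 3.39, 3.94 and 3.05 FPKM in IR. Its mean was 2.09 ± 0.804 FPKM in IRLac, 2.20 ± 0.349 FPKM in IRLacz and 3.72 ± 0.481 FPKM in IR. Of the 5 IRLac libraries 4 lay below all IR libraries, and the log2 difference of -0.64 was not called over all entries (SE 0.17, limma adjusted p = 0.28). The unadjusted limma p of Il1b was 0.00105 here and 0.00473 in IRLacz against IR. The adjustment depends on the other entries too, of which 4171 had an unadjusted p under 0.05 in IRLacz against IR. The call of Il1b in IRLacz alone is thus not a difference between the gavage groups. The comparisons of IRLacz and IRLac with IR share the IR libraries, so their values are set side by side only. Il1rn was at 5.06, 4.11, 2.21, 5.20 and 4.53 FPKM in IRLac, inside or below the IR range, a difference of -0.51 (limma adjusted p = 0.86). Il33 was at 12.7, 12.2, 9.53, 19.5 and 15.0 FPKM in IRLac, against 13.7, 11.5, 11.8, 12.2 and 11.9 FPKM in IR (0.13, 95% confidence interval -0.25 to 0.50). The remaining members differed by -0.29 to 0.02. Il1r2 had its highest values here, at 0.75, 1.32, 0.60, 0.80 and 1.47 FPKM in IRLac, and overlapped IR.

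Set directly against each other, the gavage groups gave no call among the tested members (0 of 9, with 0.0221% of all entries called by limma in IRLacz against IRLac). An unadjusted p under 0.05 was found for 2171 of all 13594 tested entries and for 2 of the 9 members. These 2 members were Il33, with a log2 difference of -0.63 (limma adjusted p = 0.14), and Il1r1, at -0.27 (adjusted p = 0.26). Without IRLac replicate 3, Il33 was called (adjusted p = 0.038). Il1b did not separate the gavage groups, with a difference of 0.08 (95% confidence interval -0.29 to 0.45).

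Ratios within a library set the members against each other without a scale between libraries. In all, 7 pairs were computed and are given as descriptions, those over Il1r1 above for IR and sham. How often ratios of other pairs of entries separate the groups was not computed. Il33 over Il1b was 4.58, 7.45 and 8.85 (lowest, median and highest) in IRLac, against 2.78, 3.33 and 3.905 in IR, and these groups did not overlap. In IRLacz it was 2.88 to 5.45, overlapping both IR and IRLac, and in sham 1.88 to 8.38. The antagonist over its agonist, Il1rn over Il1b, was 0.759 to 2.44 in IRLacz, 1.39 to 3.54 in IRLac, 1.36 to 2.28 in IR and 0.0316 to 0.438 in sham. All injured libraries thus had more antagonist messenger per agonist messenger than any sham library. Il18 over Il1b ran the other way in IRLac and in IR, at 0.468 to 0.972 in IRLac and 0.391 to 0.752 in IR, against 1.14 to 3.47 in sham. In IRLacz it was 0.382 to 1.41 and overlapped sham. Pycard over Casp1 was 3.33 to 6.09 in IR, against 6.76 to 14.4 in sham, without overlap. It was 5.7 to 10.1 in IRLacz and 3.39 to 8.21 in IRLac, and both overlapped sham. Casp1 over Nlrp3 had medians of 2.11 in IRLacz, 1.78 in IRLac, 2.60 in IR and 3.47 in sham. Its ranges in IRLacz and IR overlapped sham, and that in IRLac lay below sham.

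**Figure D3:**
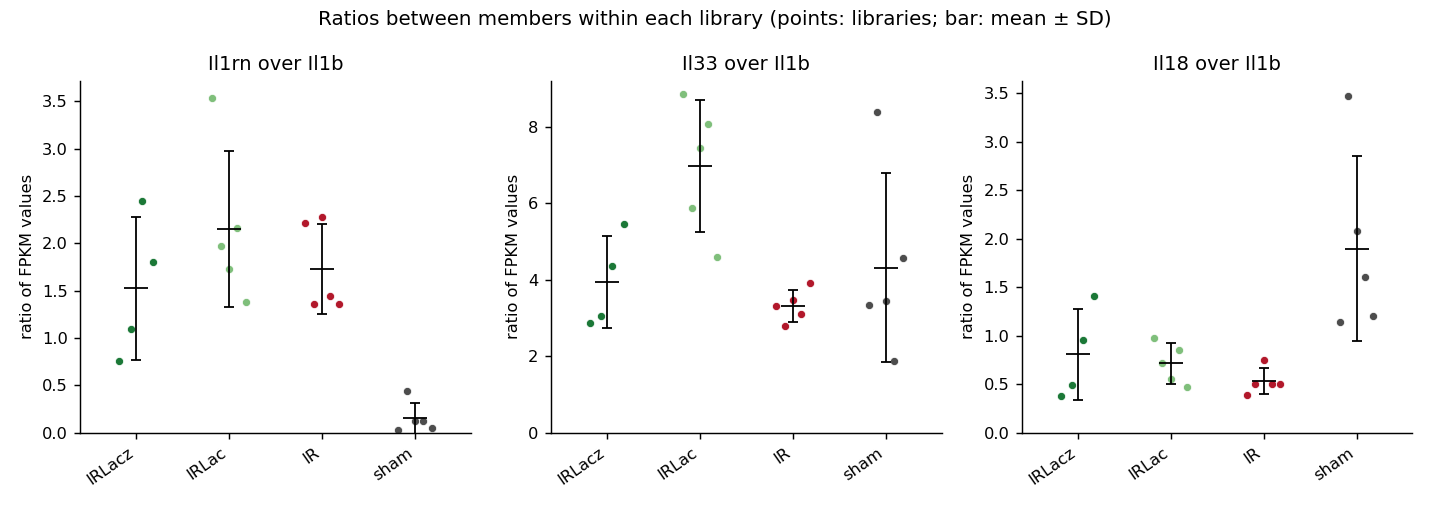
Ratio of FPKM values within each library (vertical axis) for Il1rn over Il1b, Il33 over Il1b and Il18 over Il1b, with 1 point per library and bars for the mean ± SD in IRLacz, IRLac, IR and sham. Il1rn over Il1b reaches at most 0.438 in sham and at least 0.759 in the injured groups, and the IRLac libraries hold the highest injured values of Il33 over Il1b, up to 8.85.

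Across all 19 libraries the members' levels ran together with the exception of Il18. Pearson correlations of log2(FPKM + 1) between pairs of the other 8 tested members were 0.80 to 0.98, and those with Il18 0.41 to 0.55; the points share libraries and the step between sham and injury. After the group means were removed, Il1r1 and Il33 stayed closest at 0.82, followed by Il33 with Nlrp3 at 0.80. Il18 was then less apart, at 0.73 with Il33 and 0.72 with Il1rn and down to 0.39 with Casp1. Il1b and Casp1 were at 0.09 and Il1rap and Pycard at -0.01. The entries most like Il33 were Rnf150 (0.986), Mapre1 (0.984) and its own receptor gene Il1rl1 (0.982), and after removal of group means Socs3 (0.925), Cd14 (0.916) and Cd48 (0.915). The entries most like Il1r1 were St6galnac4 (0.984), the macrophage growth factor receptor Csf1r (0.983) and Ppp1r9b (0.983). Il1rn ran most like Rrbp1 (0.992), Smox (0.988) and Nfkb1 (0.986), and Nlrp3 most like Obsl1, Sh3kbp1 and Pik3r5 (0.983 to 0.984). Il1b was most like Gm1966 (0.949), Stk10 (0.949) and Fgl2 (0.936), and Il18 most like Smim14 (0.82) and, after removal of group means, Lat2 (0.917). These likenesses are descriptions over 19 libraries and say nothing of shared control. IRLacz replicate 1 and IRLac replicate 3, each lowest in its group for 9 of the 10 members, were kept in all these correlations. Correlations without these libraries, or typical of all entries, were not computed.

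Of 14 other ligands and receptors of the family 13 were in the table and 7 were tested. In IR against sham 6 of the 7 rose and 1 fell, beside 57.0% and 18.6% of all entries, with a median of 1.39, against 0.29 over all entries. All 6 that rose were tested only through injured libraries, so they had to differ from sham. The receptor chains of IL-18, Il18r1 (2.57 FPKM in IR, 0.274 FPKM in sham) and Il18rap (1.55 FPKM in IR, 0.114 FPKM in sham), rose while the ligand itself was not called. Il1rl1, the IL-33 receptor, was at 1.74 FPKM in IR, against 0.146 FPKM in sham, and Il1rl2, the IL-36 receptor, at 2.25 FPKM in IR, against 0.246 FPKM in sham (limma adjusted p = 8.5e-08 and 3.9e-08). Il36a, an epithelial ligand of the family, was at 5.68 to 9.65 FPKM in IR and listed at 0 in all 5 sham libraries. Il18bp, which binds and blocks IL-18, was at 6.49 ± 2.61 FPKM in IR, against 1.00 ± 0.221 FPKM in sham. The gene that fell was Sigirr, a brake on IL-1 receptor signalling, at 58.1 FPKM in IR, against 73.9 FPKM in sham (-0.34, limma adjusted p = 0.0012). Il1a, the second IL-1 agonist, stayed under 1 FPKM everywhere, at 0.27 to 0.53 FPKM in IR, against 0.05 to 0.26 FPKM in sham. None of the 7 was called in IRLacz or IRLac against IR; the differences were -0.69 to -0.09 in IRLacz and, Il18bp aside, -0.27 to 0.06 in IRLac. Il18bp itself was at 2.36 ± 1.51 FPKM in IRLac, against 6.49 ± 2.61 FPKM in IR, a difference of -1.20 that did not pass over all entries (limma adjusted p = 0.25).

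The other inflammasome genes went both ways after injury. Of 20 listed, 14 were tested; 9 rose in IR against sham and 3 fell, shares near the 57.0% and 18.6% of all entries, with a median of 0.72, against 0.29 over all entries. Of the 14, 7 were tested only through injured libraries. Gsdmd, which encodes the pore protein cut by inflammasome caspases, was at 12.502 FPKM in IR, against 2.41 FPKM in sham, and Panx1, a channel that releases ATP, at 6.80 FPKM in IR, against 0.672 FPKM in sham. P2rx7, the ATP receptor upstream of NLRP3, was at 3.6 FPKM in IR, against 0.712 FPKM in sham (limma adjusted p = 1.9e-07). Nlrp6, a sensor of epithelial cells, was the clearest fall, at 17.7 FPKM in IR, against 44.0 FPKM in sham (-1.30, limma adjusted p = 3.2e-05), followed by Nlrc4 (1.14 FPKM in IR, 1.88 FPKM in sham) and Nek7 (23.9 FPKM in IR, 27.0 FPKM in sham). Proximal tubule markers fell for 8 of 8 in IR, with summed levels of 2298 to 3216 FPKM in IR, against 5640 to 6142 FPKM in sham, and their part in these falls was not tested. Among those that rose, Naip2, Naip5 and Nlrp1b have close relatives, and how shared reads were counted is not given in the sources used here. None of the 14 was called in IRLacz or IRLac against IR. The nearest was Panx1, at 4.24 FPKM in IRLacz and 6.80 FPKM in IR (-0.60, limma adjusted p = 0.051). Nlrp6 was at 26.4 FPKM in IRLacz and 17.7 FPKM in IR (0.55, adjusted p = 0.12).

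**Figure D4:**
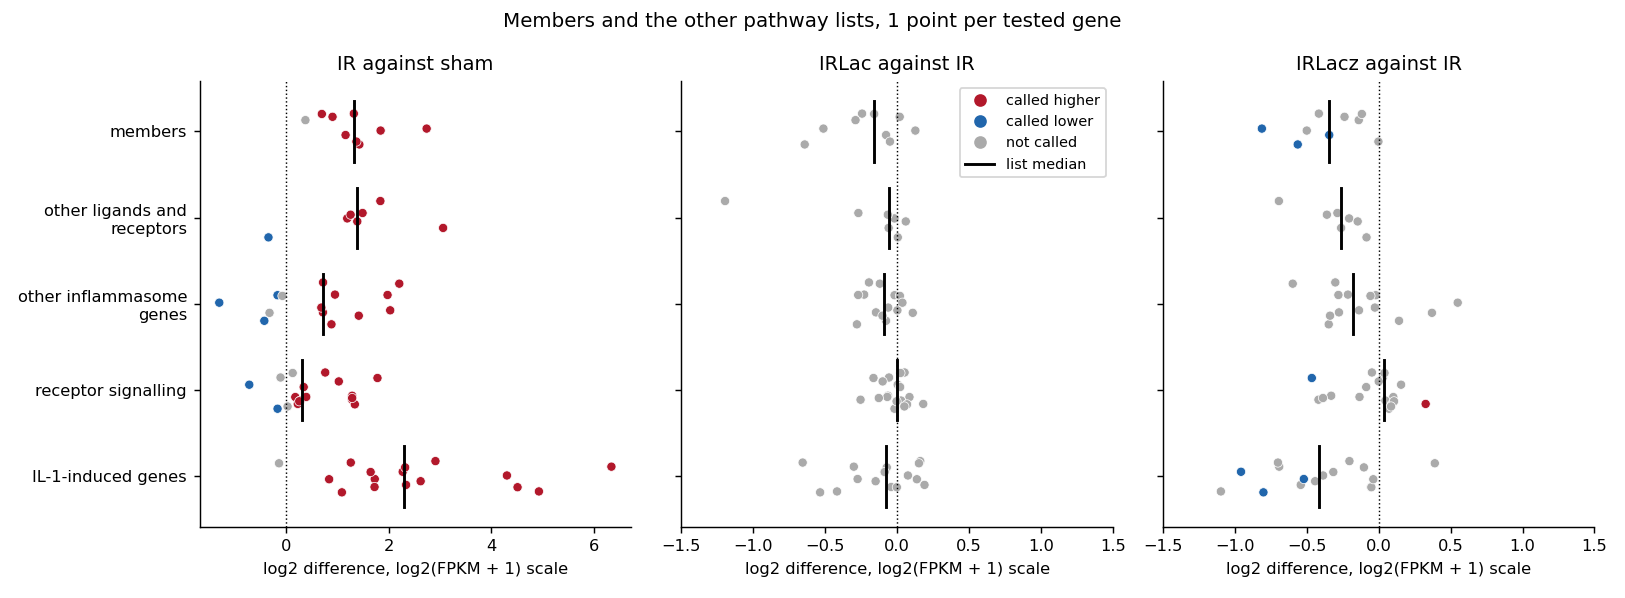
Log2 differences (horizontal axis, log2(FPKM + 1) scale) of the tested members and of the tested genes of the other pathway lists (rows), with 1 point per gene, for IR against sham, IRLac against IR and IRLacz against IR; red marks genes called higher, blue lower, grey not called, and the black line is the list median. Medians in IR against sham run from 0.31 for receptor signalling to 2.29 for IL-1-induced genes, and in IRLacz against IR the IL-1-induced genes have a median of -0.42; the first panel has a wider scale.

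Genes of the receptor's signalling chain had a smaller median difference than the members. All 18 were tested, and 13 rose and 2 fell in IR against sham, beside 57.0% and 18.6% of all entries, with a median of 0.31, close to the 0.29 of all entries. Nfkb1 and Rela, the genes of the NF-kappaB subunits p50 and p65, rose. Nfkb1 was at 30.5 FPKM in IR, against 8.13 FPKM in sham, Rela at 52.0 FPKM in IR, against 20.7 FPKM in sham, and Ikbkb, the gene of an activating kinase, at 31.2 FPKM in IR, against 18.02 FPKM in sham. Chuk, the partner kinase, fell to 25.7 FPKM in IR, against 42.7 FPKM in sham, and Irak1 to 27.4 FPKM in IR, against 30.9 FPKM in sham. Under median-ratio scaling 7 rose and 5 fell, and Tab1, Ikbkg and Map3k7 turned to a negative sign, so small changes of this list depend on the scale. In IRLacz against IR, Tab1, which encodes a partner of the kinase TAK1, was higher (14.7 FPKM in IRLacz, 11.5 FPKM in IR; 0.33, limma adjusted p = 0.04), and Nfkb1 was lower (22.3 FPKM in IRLacz, 30.5 FPKM in IR; -0.47, adjusted p = 0.046). Neither of these was called without IRLacz replicate 1. None was called in IRLac against IR, where differences were -0.25 to 0.18.

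Genes known to be induced by IL-1 had the highest median of the 4 pathway lists, below the 3.16 of the macrophage markers. Of 20 listed, 16 were tested and 15 rose in IR against sham, beside 57.0% of all entries, with a median of 2.29; many of them also answer to other cytokines. Of the 16, 9 passed the filter only through injured libraries and so had to differ from sham. The iron-siderophore-binding protein gene Lcn2 was at 387 FPKM in IR, against 3.75 FPKM in sham, the monocyte chemokine Ccl2 at 54.8 FPKM in IR, against 0.89 FPKM in sham, and the adhesion molecule Vcam1 at 96.8 FPKM in IR, against 3.24 FPKM in sham. Ptges, a prostaglandin synthase, was the one not called, at 7.95 FPKM in IR, against 8.74 FPKM in sham. In IRLacz against IR 3 of the 16 were called lower and none higher, beside 7.92% and 5.39% of all entries, with a median of -0.42, against -0.0041 over all entries. The cytokine Il6 was at 0.06 to 0.39 FPKM in IRLacz, against 0.63 to 1.92 FPKM in IR, without overlap (-0.80, SE 0.18, limma adjusted p = 0.01). It entered the test through 3 IR libraries and 1 IRLac library and no IRLacz library, so its call is partly set by the filter; with the filter removed the adjusted p was 0.0136. Ccl20, a chemokine for lymphocytes and dendritic cells, was at 1.51 FPKM in IRLacz and 3.91 FPKM in IR (-0.96, adjusted p = 0.011), and the matrix protease Mmp3 at 1.71 FPKM in IRLacz and 2.89 FPKM in IR (-0.52, adjusted p = 0.025). The calls of Il6 and Ccl20 held in all 18 alternatives that kept them in the test, and that of Mmp3 in 14 of 18. Without IRLacz replicate 1 the count was still 3 of 16 and the median was -0.15. In IRLac against IR none of the 16 was called, and Il6 was at 0.51 ± 0.443 FPKM in IRLac and 1.16 ± 0.484 FPKM in IR (-0.54, limma adjusted p = 0.42).

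Neutrophils are another known source of Il1b. Of 10 neutrophil markers 3 were tested, and none was called in IRLacz or IRLac against IR. The defining marker Ly6g was listed at 0 to 0.34 FPKM in IRLacz, 0 to 0.08 FPKM in IRLac and in IR, and 0 in all sham libraries. S100a8 was at 2.93 to 13.9 FPKM in IRLacz, 1.58 to 20.4 FPKM in IRLac, 3.10 to 6.65 FPKM in IR, against 0.26 to 1.06 FPKM in sham. The summed neutrophil list was at 8.87 to 32.9 FPKM in IRLacz, 4.59 to 41.4 FPKM in IRLac, 11.6 to 17.6 FPKM in IR, against 0.76 to 3.20 FPKM in sham. Its range in IRLacz and in IRLac reached above and below that in IR. The part of neutrophils in the level of Il1b was not tested. Markers of endothelial cells, which carry Il1r1, went both ways. Of 8 tested, 4 rose (Cdh5, Egfl7, Pecam1 and Emcn) and 2 fell (Kdr and Tek) in IR against sham. Of all entries, 57.0% rose and 18.6% fell there. Under median-ratio scaling 1 of the 8 rose and 3 fell. None of the 8 was called in IRLacz or IRLac against IR. Cdh5 came nearest in IRLacz, at 10.98 FPKM in IRLacz and 13.402 FPKM in IR (-0.27, limma adjusted p = 0.057), and it was called lower in 4 of 19 alternatives. The summed endothelial list was at 236 to 279 FPKM in IRLacz, 221 to 290 FPKM in IRLac, 249 to 286 FPKM in IR, against 206 to 287 FPKM in sham.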

How the data were processed

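The authors deposited 1 table of FPKM values with a column for each of the 19 libraries. Build mm9, StringTie 1.0.4 and HISAT are listed in the submitters' processing notes. What annotation, strand setting, filter or rule for shared reads was used is not given in the sources used here. FPKM totals were 545590 to 584798 per library, which is not a depth; read depth is unknown, so no counting interval is given. In 27 entries with a median above 5 FPKM a library was listed at 0, so a 0 can be a failed estimate. Gene IDs were named with a RefSeq table of GRCm38 (18238 of 19287).

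Groups came from the sample titles. Log2(FPKM + 1) was fitted with limma 3.58.1 (R 4.3.3, mean-variance trend) over all 19 libraries in 1 model for the 13594 entries that reached 1 FPKM in 4 or more libraries, and p-values were adjusted by Benjamini-Hochberg within each of 6 comparisons. The steps were tested on simulated data. All members were named. From each pathway list up to 3 entries called in each direction with the smallest adjusted p were named per comparison, and short lists of calls in full; others named in the text were chosen after their values were seen. The 3 entries with the highest correlation were named as most like a member. Members and lists were chosen with earlier results of these data known. Alternatives covered the pseudocount, filter, scaling, model and left-out libraries; leaving out IRLacz replicate 1 and IRLac replicate 3 together was chosen after seeing the data. L. acidophilus was assigned to IRLac by elimination, since the design text spells the short form with another letter. Sequences are RefSeq promoter windows of GRCm38.p6, matched by gene ID for 10 of 10 members.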

Additional observations from a re-analysis of the deposited data

Results flagged for a closer look

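Pycard in IRLacz had 1 library far from the others. IRLacz replicate 1 stood at 8.96 FPKM, and the other 3 IRLacz libraries at 13.67, 13.88 and 13.92 FPKM. The gap to the nearest library was 0.9496 of the whole range of the group, above the critical value of 0.829 for 4 libraries. This was 1 of 40 combinations of member and group examined, and chance gives such a gap in about 1 of 20. In the same library 9 of the 10 members had their lowest IRLacz value, as did 57.7% of all tested entries. The cause was not tested.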

How the results depend on the processing

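Of single-member results, those of IR, IRLac and IRLacz against sham kept their side of the threshold in 169 of 173, 171 of 173 and 161 of 164 alternatives, those of IRLac against IR in 173 of 173, those of IRLacz against IRLac in 163 of 164, and those of IRLacz against IR in 119 of 164, with 39 calls lost and 6 gained; no called value turned its sign. With entries of at least 5 FPKM on average, 2 members remained for testing, and both were called in IR, IRLac and IRLacz against sham.

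In IRLacz against IR, members called were 3, and 0 with a pseudocount of 0.1, no filter, a mean of at least 5 FPKM, TPM, or without IRLacz replicate 1 and IRLac replicate 3; 1 with only the 2 groups compared, 5 with library weights, and 0 to 4 when single libraries were left out. Entries called were 1809, with 885 for only the 2 groups, 2978 with library weights, and 606 to 2197 when single libraries were left out. In IRLac against IR, 1 entry was called, 0 with a mean of at least 5 FPKM, library weights or both libraries left out, and 0 to 116 with single libraries left out (116 without IR replicate 5). In IRLacz against IRLac, 3 entries were called; 1 with a pseudocount of 0.1 or only the 2 groups, 5 with no filter or quantile normalization, 0 with a mean of at least 5 FPKM, 10 with median-ratio scaling, 167 with library weights, 86 with both libraries left out, and 1 to 490 with single libraries left out (490 without IRLac replicate 3). There 0 members were called, and 0 to 1 with single libraries left out. The cause was not tested.

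Replicate numbers gave no clear pairing of the libraries: deviations of same-numbered libraries correlated at -0.39 to 0.23. With a replicate block, 0 members were called in IRLacz against IR, 0 entries in IRLac against IR and 1 entry in IRLacz against IRLac. In IR, 1 of 4 IRLacz and 0 of 5 IRLac libraries correlated best with their own number. In sham, 2 of 4 IRLacz, 3 of 5 IRLac and 0 of 5 IR libraries did, and in IRLac 0 of 4 IRLacz libraries. Read depth is unknown, and values under about 0.1 FPKM rest on 2 decimals.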
